A study of Homo sapiens with 9 samples.

Results

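Cells of U-373MG, an established human glioblastoma line labelled as astrocytoma too, were exposed to either of a pair of synthetic peptides, and the libraries of both peptides were pooled as 1 arm of 6 and set against 3 control libraries. The peptide arm held 3 libraries of cells given NnK-1 and 3 of cells given CBRV1-10493, each at 200 nM for 48 h, and the control arm held 3 libraries of cells recorded without a peptide, for which neither a vehicle nor a time in culture is given in the sources used here. All 9 libraries of the series entered the comparison, which asked which transcripts move alike with either peptide. The labels record no introduced allele, all groups are 1 line, and the same controls serve both peptides. Whether each library came from its own culture is not stated, so p-values measure only how far these samples spread, which may be technical spread.

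Both peptides derive from jellyfish sequences and are described as resembling ShK, a sea anemone toxin that plugs the pore of the voltage-gated potassium channel Kv1.3. Kv1.3, the product of KCNA3, holds the membrane potential of lymphocytes and microglia negative and so sustains calcium entry, which activates calcineurin and the transcription factor NFAT. Transcripts were read near their 3′ ends, so 1 read stands for about 1 transcript end and a level in CPM (counts scaled to the library's total) needs no correction for length. In RNA from whole cultures, fewer cells of a type and less RNA per cell cannot be told apart.

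Libraries held 11203094 to 13491075 counts, and 13676 genes had enough reads to be tested, 10617 of them at a mean of 5 CPM or more. The first principal component set NnK-1 replicate 2 apart (at 52.1, 19.7% of the variance) and the second CBRV1-10493 replicate 1 (at -44.9, 14.7%), and results were also computed without both. Most astrocyte and glioma markers were present: VIM lay at 5525 CPM in control and 5720 CPM in peptide libraries, NES at 1421 and 1428, S100B at 131 and 132 and GFAP at 23.2 and 23.5, while ALDH1L1 had no read and AQP4 4 reads in all. Of the astrocyte and glioma markers 12 of 15 were tested, 7 above and 5 below 0. Some markers of other cells were also read in every library, among them MAP2 at 178 and 171 CPM, NEFL at 60.1 and 65.3, CNP at 341 and 352 and MBP at 33.6 and 35.1. Most of the others were at or near 0: of 13 immune markers 1 was tested and 5 had no read, of 11 oligodendrocyte markers 3 were tested and 5 had no read, and 3 of 10 endothelial, 4 of 10 epithelial and 4 of 15 neuronal markers were tested, none of them passing.

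KCNA3 itself had a single read (in the library NnK-1 replicate 2), and its 0 counts in the control arm allow a level of up to 0.0775 CPM (3 counts over the group, counting error only). Among 40 voltage-gated potassium channel genes 21 had no read and 5 were tested, 2 above and 3 below 0, with none passing. KCNQ5, a channel of the M-type current, stood at 2.31 ± 1.57 CPM with peptide and 1.20 ± 0.63 CPM in control cells, and KCNC4, a fast inactivating channel, at 1.04 ± 0.26 and 0.56 ± 0.17 CPM (mean ± SD, n = 6 and n = 3), with overlapping arms in both cases. The channels of calcium entry, calcineurin and NFAT gave 26 tested genes, 16 above and 10 below 0, with a median log2 fold change of 0.04 against 0.01 over all genes tested. Of these PPP3R1, the regulatory subunit of calcineurin (log2 fold change -0.20), and TRPC1, a cation channel (-0.60, and -0.38 without control replicate 2), had an unadjusted p under 0.05 and neither passed.

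No gene passed an adjusted p of 0.05 when both peptides were pooled, in either direction (percent called 0, of 13676; edgeR's quasi-likelihood test, Benjamini-Hochberg adjustment). The smallest adjusted p was 0.167, for SCARNA22, a guide RNA of the Cajal body. An unadjusted p under 0.05 was reached by 674 genes (4.93% of those tested), 307 higher (2.24%) and 367 lower (2.68%). On the same counts DESeq2 called 4 genes and edgeR's exact test 6, and limma-voom called 0. All 6 peptide libraries lay above all 3 controls for 150 genes (1.10%) and below them for 195 (1.43%), of which 126 and 141 had a mean of 5 CPM or more. Among these genes at 5 CPM or more the median absolute log2 fold change was 0.28, and 2 reached 1, TSHZ3 and SFI1.

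The intervals give the size of a shared change that the depth and spread allow. At 5 CPM or more a gene's log2 fold change had a 95% interval that reached, in the median, 0.28 to each side. For 10433 of these 10617 genes (98.3%) the interval lay between -1 and 1, that is within a doubling or halving, and for 8468 (79.8%) it lay within a 1.5-fold change. These intervals are per gene and not adjusted for their number.

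**Figure D1:**
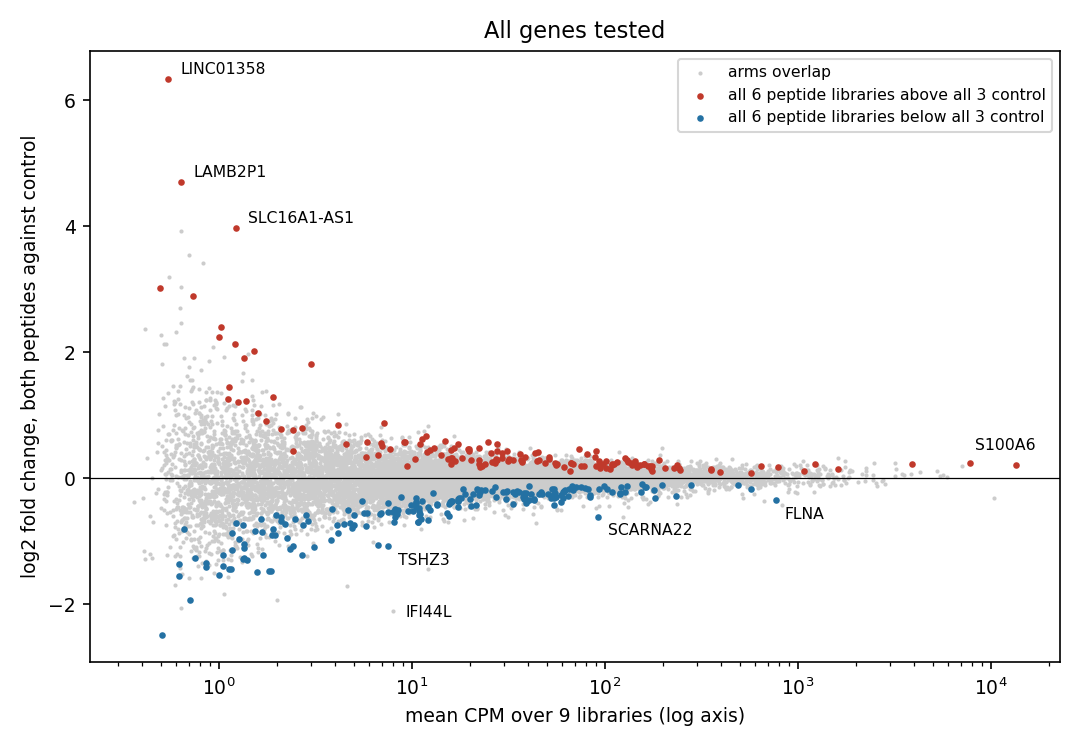
Each point is 1 of the 13676 genes tested, with its mean CPM over 9 libraries (log axis) and its log2 fold change of both peptides against control. The 150 genes with all peptide libraries above control and the 195 below are coloured, and above 5 CPM nearly all of them lie between -1 and 1.

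For each direction the 10 genes of smallest p at 5 CPM or more are described first, none of them passing. Of them 8 of the higher and 9 of the lower had arms that did not overlap, which their choice by p favours.

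Among the genes that stood higher with peptide, PPM1D encodes the phosphatase Wip1, which switches off p53 and DNA damage signalling. Its level was 15.2, 19.5 and 21.9 CPM in the control libraries, 25.9, 30.3 and 27.2 with NnK-1 and 27.4, 31.5 and 25.5 with CBRV1-10493. Every peptide library lay above every control, at a log2 fold change of 0.57 (95% interval 0.27 to 0.87, adjusted p = 0.918 by edgeR), and the estimates for the peptides alone were 0.56 and 0.58.

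RTCB is the ligase that joins the cut exons in tRNA splicing and in the XBP1 messenger of the unfolded protein response. It was read at 64.5, 76.5 and 77.8 CPM in control libraries, at 99.1, 110 and 98.9 with NnK-1 and at 102, 90.2 and 86.7 with CBRV1-10493. The lowest peptide library stood above the highest control, with a log2 fold change of 0.42 (0.21 to 0.63, adjusted p = 0.888 by edgeR). The list of tRNA splicing and ligation genes, RTCB included, gave 6 of 13 above and 7 below 0, and CLP1, an RNA kinase of the same pathway, stood at 4.48 ± 2.88 against 7.55 ± 1.28 CPM.

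RUVBL2, an ATPase of chromatin remodelling and of the assembly of small nucleolar ribonucleoproteins, had 39.5, 38.1 and 33.2 CPM in controls, 48.8, 57.1 and 49.3 with NnK-1 and 50.0, 46.1 and 43.3 with CBRV1-10493 (log2 fold change 0.41). KDM3A, a histone H3K9 demethylase, had 63.7, 66.5 and 72.0 CPM in controls, 87.4, 84.9 and 85.2 with NnK-1 and 106, 77.2 and 83.4 with CBRV1-10493 (0.38). FPR1, the formyl peptide receptor better known from neutrophils, had 21.8, 24.2 and 17.5 CPM in controls, 27.1, 32.6 and 28.8 with NnK-1 and 36.1, 27.0 and 32.0 with CBRV1-10493 (0.53). In all 3 genes the arms were separate and the libraries of both peptides intermingled.

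S100A6, a calcium-binding protein, was the most abundant of the 20, at 8256 ± 697 CPM with peptide and 6977 ± 282 CPM in the controls, with 0.24 as the log2 fold change (interval 0.10 to 0.39). C9orf135, the gene of a protein of cilia, showed the widest separation in proportion to its level among the higher 10, with 4.57, 4.24 and 4.96 CPM in controls, 6.07, 11.5 and 7.57 with NnK-1 and 7.93, 9.34 and 8.37 with CBRV1-10493 (0.88). GCOM1 stood at 80.6 ± 7.78 against 58.5 ± 3.48 CPM (0.46). It is a read-through unit that shares exons with POLR2M and MYZAP, so reads there cannot be assigned to 1 gene with certainty. POLR2M lay at 1.24 CPM over the peptide arm and 0.646 CPM over the control arm with overlapping arms, and MYZAP had no read. FASTKD3, a mitochondrial RNA-binding protein (0.74), and AAGAB, a chaperone of clathrin adaptors (0.48), had overlapping arms, and AAGAB stood at 0.27 without both libraries that lay apart.

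On the lower side TSHZ3, a zinc-finger transcription factor of neural development, was read at 10.98, 10.4 and 13.3 CPM in controls, at 6.47, 3.96 and 6.15 with NnK-1 and at 6.09, 4.75 and 5.34 with CBRV1-10493. The highest peptide library was well under the lowest control, and the log2 fold change of -1.08 (interval -1.53 to -0.63, adjusted p = 0.423 by edgeR) was nearly the same for each peptide alone (-1.06 and -1.10). SFI1, a centrosome protein, stood at 4.89 ± 1.47 against 10.3 ± 2.40 CPM (-1.06).

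FLNA, the actin crosslinker filamin A, was read at 946, 846 and 901 CPM in controls, 642, 687 and 658 with NnK-1 and 612, 816 and 820 with CBRV1-10493 (log2 fold change -0.35). Of the CBRV1-10493 libraries 2 came close to the lowest control while the NnK-1 libraries lay together far under it. The list of focal adhesion and actomyosin genes gave 21 above and 19 below 0 of 40 tested, with a median of 0.00. ACTG1, cytoplasmic actin, lay higher in all 6 peptide libraries at 14074.5 ± 1507 against 12196.9 ± 58.8 CPM (0.21, and 0.12 without both libraries that lay apart).

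AGPAT2, an enzyme of phospholipid and triglyceride synthesis, had controls close to each other, at 40.0, 41.1 and 39.5 CPM, with 28.1, 29.4 and 29.4 with NnK-1 and 29.4, 31.9 and 32.8 with CBRV1-10493 (log2 fold change -0.41). LONP1, the main protease of the mitochondrial matrix, stood at 53.6 ± 3.98 with peptide and 69.8 ± 5.99 CPM without (-0.38). RNF39 (-0.60), CCDC66, a protein of cilia and microtubules (-0.67), and GOLGA4, a tether of the trans-Golgi (-0.28), likewise had separate arms. IFI44L is described with the interferon genes.

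**Figure D2:**
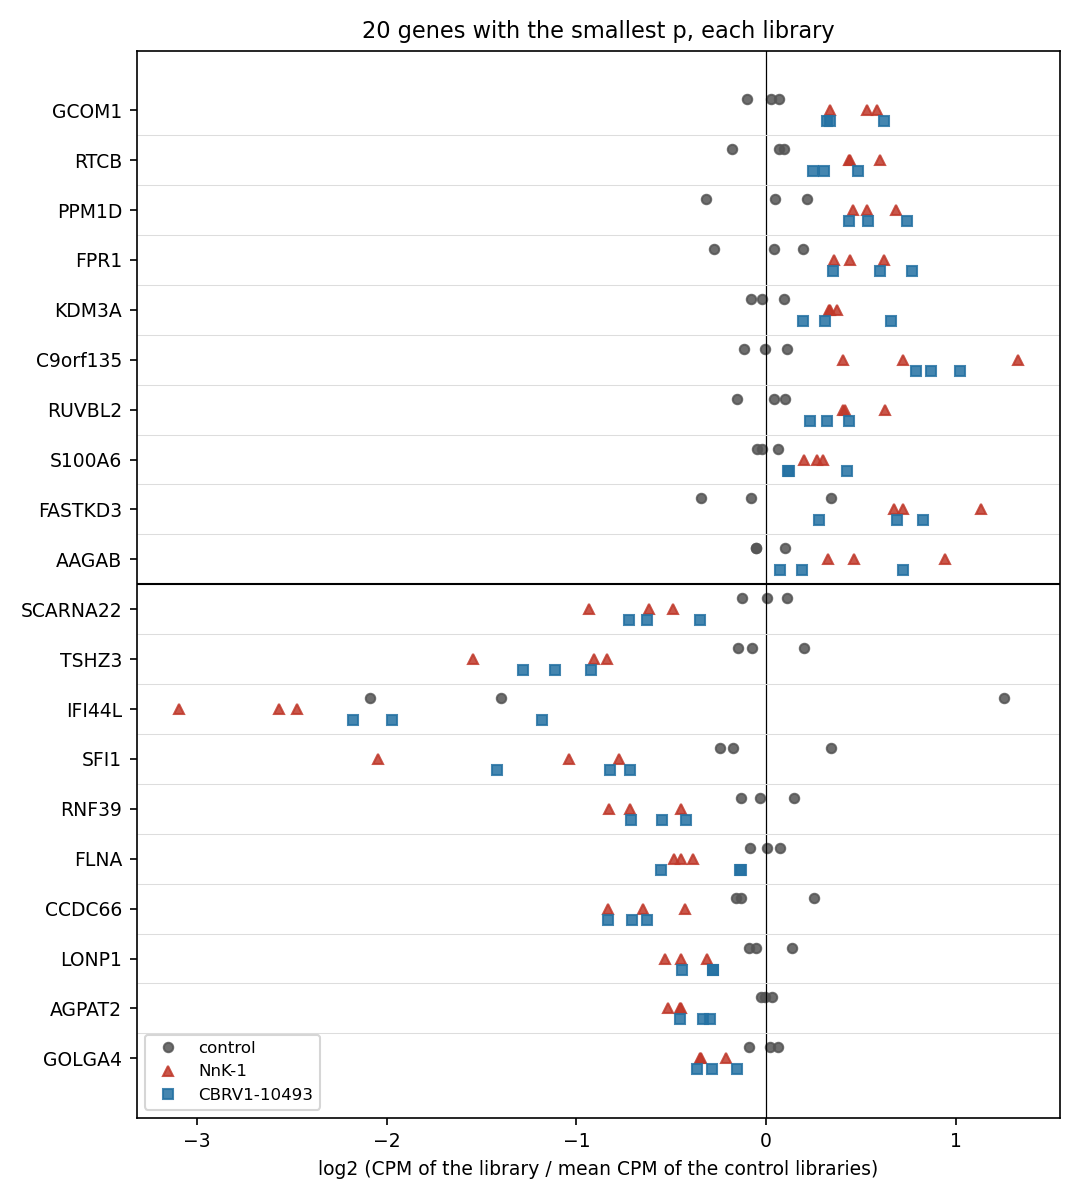
Each row is 1 of the 20 genes, and each mark is 1 library as the log2 ratio of its CPM to the mean of the 3 controls. In 17 rows the control circles stand clear of all peptide marks. For IFI44L 1 control circle stands far to the right of the other 2.

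The peptides were then set against each other, since pooling treats them alike. For the 20 genes every 95% interval of the difference CBRV1-10493 minus NnK-1 included 0, and the smallest unadjusted p was 0.0907, for FLNA. The differences were 0.11 (-0.16 to 0.38) for SCARNA22, -0.04 (-0.61 to 0.53) for TSHZ3 and 0.02 (-0.33 to 0.37) for PPM1D. Differences of any size inside these intervals remain compatible with the values. The choice by the pooled p favours genes in which both peptides stand on the same side, and both estimates share the 3 controls. Over all genes the smallest adjusted p of the difference was 0.994, and that of each peptide against control was 0.499 for NnK-1 and 1.00 for CBRV1-10493 (edgeR's quasi-likelihood test with 3 groups).

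Of 47 other list members named by the same rule 6 had an interval of the difference that left out 0 (CRY1, RNU4ATAC, KCNN3, SNHG19, NFKB2 and RNU6-2), and none passed over all genes. The share of all genes with such an interval was not counted, so the 6 cannot be read as an excess. CRY1, which represses the clock's activators, stood at 1.11 with NnK-1 and 0.46 with CBRV1-10493 against control, a difference of -0.65 (-1.16 to -0.15). RNU4ATAC stood at -0.92 and -0.36 (difference 0.56, 0.17 to 0.95), and KCNN3, a calcium-activated potassium channel, at 0.08 and 0.79 (difference 0.71, 0.16 to 1.26). The differences were -0.37 for SNHG19, 0.46 for NFKB2 and -0.52 for RNU6-2. For these genes the pooled value averages estimates that lie apart, while a difference between the peptides was not established.

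**Figure D3:**
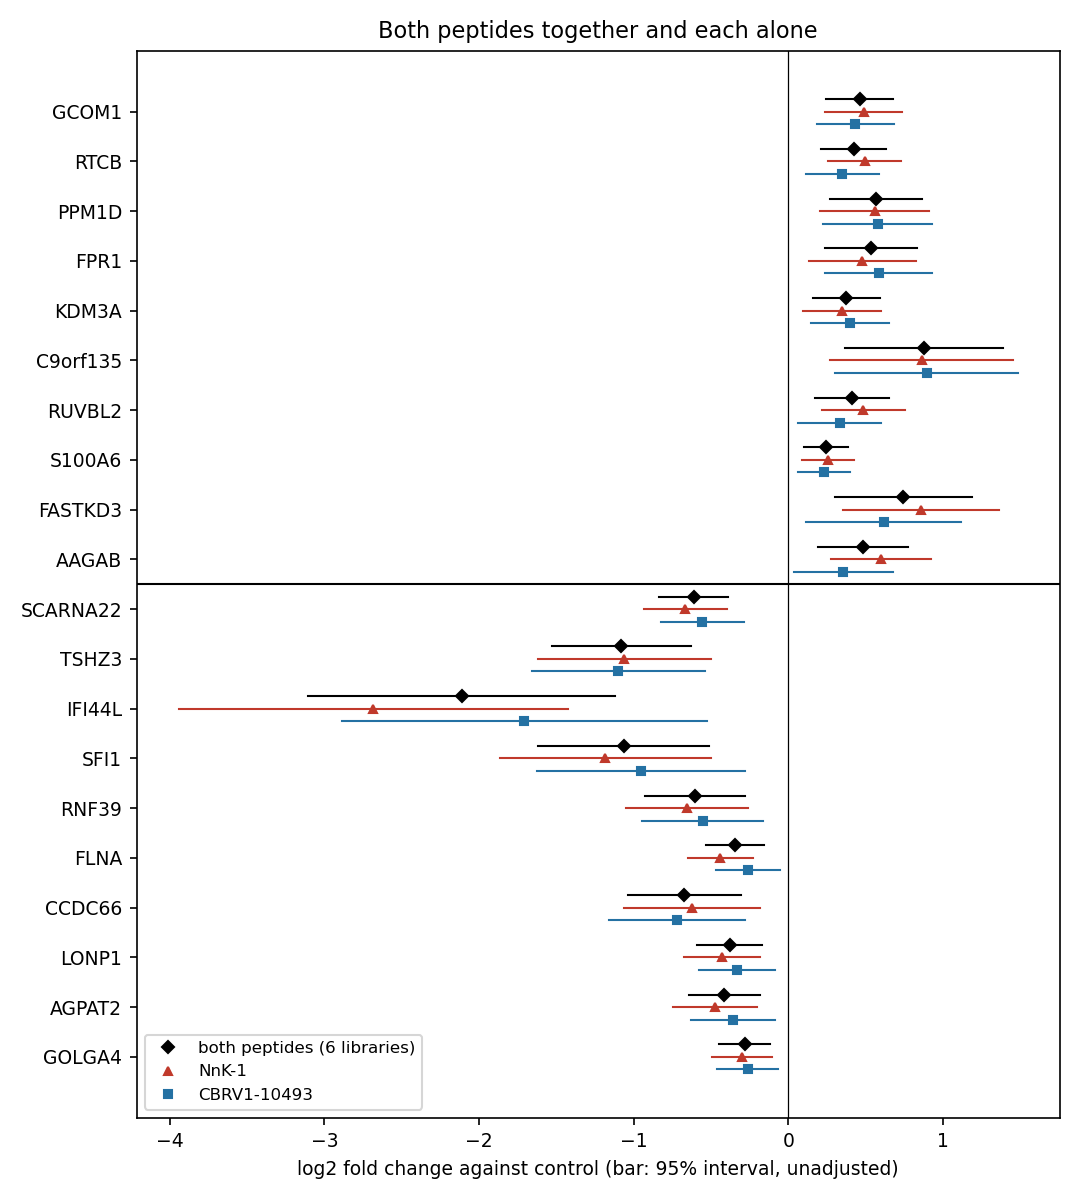
For the same 20 genes the log2 fold change against control is drawn for both peptides together and for each alone, with unadjusted 95% intervals as bars. The 3 estimates of a gene lie on the same side of 0 in all 20 rows and their bars overlap.

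Short noncoding RNAs stood below 0 more often than other transcripts, in counts over the 6 peptide libraries and for each peptide. Small Cajal body RNAs guide chemical modification of the spliceosome's small nuclear RNAs, small nucleolar RNAs do the same for ribosomal RNA, and most of both kinds are cut from introns of longer host genes. The Cajal body and structural small nuclear RNAs are among the lists used here, and the wider class was chosen after its values were seen. None of its members passed the test, and the class as a whole was not tested.

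Of those with an unadjusted p under 0.05 5 are shown, to let their length, the boxes some of them carry and the absence of a long run of A be seen. The sequences are the transcripts of GENCODE release 29, written 5′ to 3′ as DNA. Capitals mark TGAG, the letters of the Cajal body box, and ACA 3 bases before the end, the 3′ box of the H/ACA family. SNORA25 has no ACA at that place in this annotation, and SNORA4 has neither, so it holds no capitals.
SCARNA22: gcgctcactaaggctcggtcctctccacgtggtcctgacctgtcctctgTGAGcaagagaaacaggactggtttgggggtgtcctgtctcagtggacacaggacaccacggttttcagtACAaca
SCARNA18: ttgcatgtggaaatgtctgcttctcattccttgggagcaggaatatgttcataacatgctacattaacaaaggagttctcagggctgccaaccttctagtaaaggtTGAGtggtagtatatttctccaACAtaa
SCARNA16: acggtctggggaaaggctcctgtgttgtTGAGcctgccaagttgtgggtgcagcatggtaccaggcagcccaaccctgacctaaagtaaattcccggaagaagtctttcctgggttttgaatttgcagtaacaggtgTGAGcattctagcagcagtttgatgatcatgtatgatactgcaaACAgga
SNORA25: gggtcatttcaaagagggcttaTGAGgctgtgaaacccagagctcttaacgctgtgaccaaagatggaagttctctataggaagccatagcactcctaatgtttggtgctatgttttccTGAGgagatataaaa
SNORA4: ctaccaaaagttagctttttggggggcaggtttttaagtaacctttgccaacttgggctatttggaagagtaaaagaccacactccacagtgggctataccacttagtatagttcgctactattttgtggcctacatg
On the strand shown TGAG occurs in 63.3% of the 49 Cajal body RNAs and in 63% of the 955 small nucleolar RNAs of that release, and ACA at the given place in 53.1% and 29.4%, so neither sets these RNAs apart. Of the 52 tested short RNAs 38 were matched to such a transcript, and the median of their longest run of A was 3 bases. Whether reads at these symbols came from the mature RNAs or from longer transcripts was not tested. Their CPM need therefore not be levels of mature RNA.

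SCARNA22 was read at 109, 129 and 120 CPM in control libraries, at 62.5, 77.8 and 84.9 with NnK-1 and at 77.2, 93.8 and 72.2 with CBRV1-10493. The arms did not overlap, and the means were 78.1 ± 10.7 (SD, n = 6) and 119 ± 9.69 CPM (n = 3). The log2 fold change was -0.61 (interval -0.83 to -0.39, unadjusted p = 1.22e-05, adjusted p = 0.167 by edgeR), with -0.67 for NnK-1 and -0.56 for CBRV1-10493. SCARNA22 lies in an intron of WHSC1 (also named NSD2), a histone methyltransferase gene whose own level was 164 ± 12.3 CPM with peptide and 164 ± 18.0 CPM without (0.00). It passed at 0.05 by DESeq2 and by edgeR's exact test, without the filter on low counts and without CBRV1-10493 replicate 2 (adjusted p = 0.0441 by edgeR).

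SNORA25 stood at 3.53, 2.75 and 3.26 CPM in controls and between 0.33 and 2.25 CPM in the peptide libraries, and SNORA4 at 2.65, 3.77 and 1.92 CPM against 0.41 to 1.31 CPM. Both had separate arms (log2 fold changes -1.48 and -1.50), on 4 to 48 reads a library. SCARNA16 (-1.23), SCARNA18 (-1.01), SCARNA9 (-0.46), SNAR-A8 (-1.31) and RNU4ATAC (-0.61), the small nuclear RNA of the minor spliceosome, had an unadjusted p under 0.05 with overlapping arms. SCARNA18 stood at -0.42 without control replicate 2, and RNU4ATAC at -0.35 without control replicate 1. The other 6 short RNAs with such a p moved by less than 1.5 times with any 1 library left out. No short RNA had such a p on the higher side. SNAR-A8 had 20, 27 and 21 reads in controls, 8, 5 and 6 with NnK-1 and 7, 19 and 6 with CBRV1-10493. It met the filter on low counts through its controls, the arm where it was high, so its p is no support for a change.

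Over all 52 tested short RNAs 43 stood below 0, with a median log2 fold change of -0.45, where 51.5% of all genes stood above 0. The median was -0.48 for NnK-1 and -0.42 for CBRV1-10493 against the shared controls. Over both peptides it stayed between -0.51 and -0.38 under the alternatives tried, including each library left out in turn. No alternative added members beyond these 52, so this range does not show what the filter on low counts left out. By class 10 of 11 Cajal body RNAs (median -0.66) and 23 of 30 small nucleolar RNAs (-0.32) stood below 0. Of the RNAs that RefSeq types as small nuclear 6 of 6 did (-0.61). The spliceosomal ones were RNU4ATAC (-0.61), RNU11 (-0.54) and RNU6-2 (-0.22, and 0.02 with NnK-1). The others, SNAR-A8, SNAR-B1 and SNAR-B2, are not spliceosomal RNAs, and SNAR-A8 met the filter on low counts through its controls. The Cajal body median was -0.42 without control replicate 2. The list of structural small nuclear RNAs, which overlaps these classes, gave 4 of 5 below 0 with a median of -0.33, which was -0.13 without control replicate 1 and -0.71 without control replicate 3. Of the 52, 8 had an unadjusted p under 0.05 (SNAR-A8 among them), against 4.93% of all genes. Separate arms were seen in 3, against 2.52% of all genes.

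A filter on low counts can admit a rare RNA through its controls alone, so the direction was also counted over every short RNA with a read. Of 245 such symbols 156 (63.7%) had the lower mean with peptide, against 47.7% of 18511 other symbols. Among those under 5 CPM the shares were 62.6% and 48.0%. The classes differed: 19 of 23 Cajal body RNAs (82.6%), 25 of 32 small nuclear RNAs (78.1%) and 6 of 7 other short RNAs had the lower mean. Of small nucleolar RNAs, the largest class, only 106 of 183 (57.9%) did, nearer the share of other symbols. The summed level of all short RNAs was 559, 573 and 459 CPM in the control libraries, 337, 337 and 359 with NnK-1 and 366, 470 and 363 with CBRV1-10493. CBRV1-10493 replicate 2 lay above the lowest control, so the arms overlapped. Without SCARNA22 and RNU4ATAC, the most abundant members, the sums were 233, 289 and 224 CPM in controls, 183, 179 and 189 with NnK-1 and 191, 209 and 177 with CBRV1-10493. There the arms were separate, with means of 188 ± 11.4 and 249 ± 35.0 CPM, a ratio of 0.756. RNU4ATAC itself had overlapping arms, so leaving it out favours separate arms. Without SCARNA22 alone the arms still overlapped, with CBRV1-10493 replicate 2 at 376 CPM and control replicate 3 at 339 CPM.

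The host genes did not stand lower as a group. In GENCODE 36 of the 38 matched short RNAs lay inside a longer gene on the same strand, and for 34 of them that gene was among those tested. Of the 36, 18 lay in an intron and 18 overlapped an exon, SNORA25 and SNORA4 among the latter. Unspliced host RNA was not measured separately. The 34 short RNAs with a tested host had a median log2 fold change of -0.42, with 28 below 0. Their 33 hosts had a median of -0.02, with 18 below and 15 above 0 and a range from -0.32 to 0.32. TMEM167A, the host of SCARNA18, stood at -0.03, SEC14L1, that of SCARNA16, at 0.13, TAF1D, that of SNORA25, at -0.09, and EIF4A2, that of SNORA4, at -0.02. How reads that overlap both a short RNA and its host were counted was not found in the sources used here. Long host genes whose main product is the small RNA (SNHG genes) gave 11 above and 7 below 0 of 18. Histone genes with symbols starting HIST gave 13 above and 8 below 0 of 21, with a median of 0.02. The cause of the lower values was not tested.

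**Figure D4:**
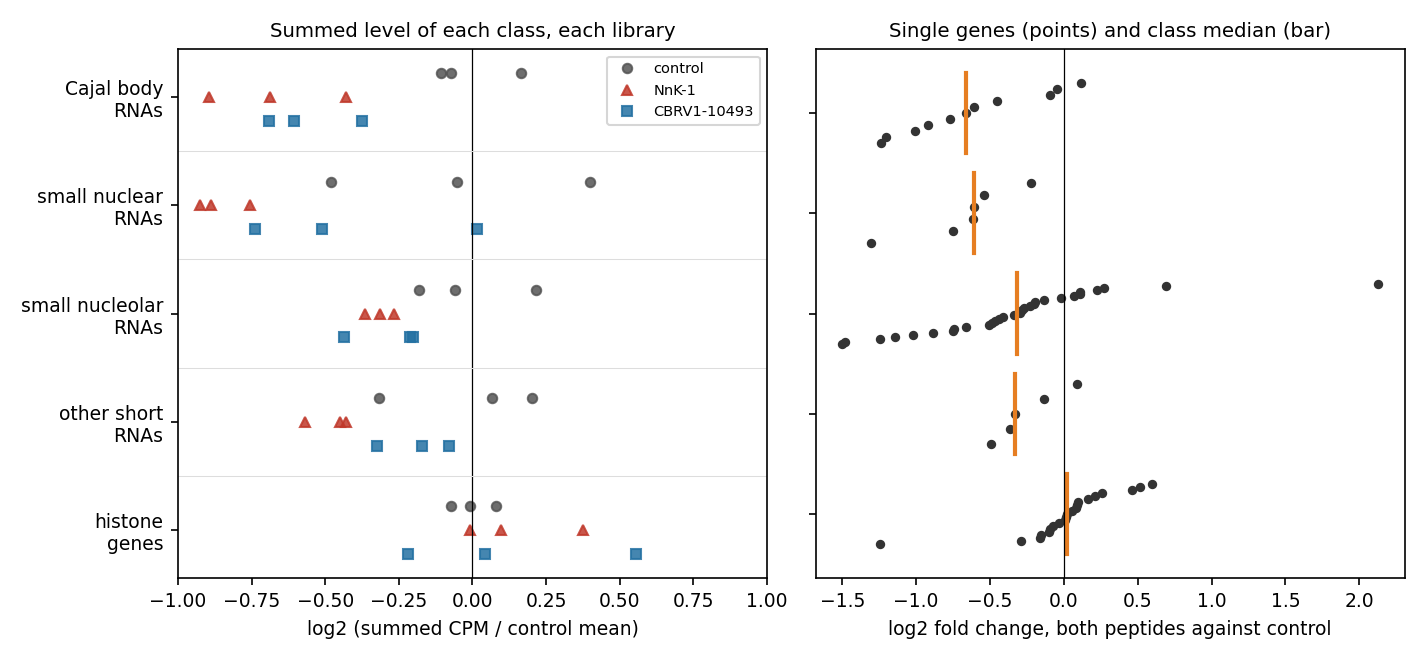
At left each mark is 1 library, as the log2 ratio of the summed CPM of the tested members of a class to the control mean. At right each point is the log2 fold change of 1 gene and the bar is the median of its class. The Cajal body RNAs have separate arms at left, and the histone genes spread around 0. Most of the Cajal body sum (156 to 188 CPM in controls, 90.0 to 129 CPM with peptide) is SCARNA22, the gene of smallest p. Its means are 119 and 78.1 CPM, and the class is not drawn without it. The small nuclear RNAs include SNAR-A8, SNAR-B1 and SNAR-B2, which are not spliceosomal.

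A few long noncoding transcripts near the detection limit showed the largest ratios, and they were picked out after their values were seen. SLC16A1-AS1, the antisense gene of the lactate transporter SLC16A1, had 3, 0 and 1 reads in controls, 19, 18 and 12 with NnK-1 and 40, 24 and 15 with CBRV1-10493. Every peptide library lay above every control, at 1.78 CPM over the peptide arm and 0.103 CPM over the control arm (log2 fold change 3.98, interval 2.23 to 5.72). SLC16A1 itself stood at 307 CPM and 313 CPM over the arms, and whether strand was used in counting is not given, so reads of the antisense pair cannot be told apart.

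LINC01358, an intergenic noncoding RNA, had no read in any control library, 3, 13 and 3 with NnK-1 and 18, 17 and 4 with CBRV1-10493, which is at least 10.4-fold higher against a floor of 3 counts over the control group. LAMB2P1, a pseudogene of the laminin gene LAMB2, had 1, 0 and 0 reads in controls, 5, 21 and 12 with NnK-1 and 5, 11 and 12 with CBRV1-10493. LAMB2 lay at 65.0 CPM in the peptide arm and 63.6 CPM in the control arm, and reads can be split between such copies. These 3 transcripts passed by edgeR's exact test, SLC16A1-AS1 also by DESeq2, and none by the quasi-likelihood test. They met the filter on low counts through peptide libraries alone, the arm where they were high. Their separate arms and these calls are therefore no support for a change.

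Interferon-stimulated genes had lower values with peptide, which rested on 1 control library. IFI44L was read at 3.85, 39.0 and 6.22 CPM in controls, at 2.76, 2.95 and 1.91 with NnK-1 and at 4.17, 7.21 and 3.61 with CBRV1-10493. Control replicate 2 was high and the other controls lay among or near the peptide libraries, and the log2 fold change of -2.11 became -0.42 without it. MX1, an antiviral GTPase, went from -1.45 to 0.0083, BST2, which tethers virus to the cell surface, from -1.72 to -0.69, and IFI6 from -0.72 to -0.14. Of the 38 tested genes of the list 26 stood below 0 (median -0.13) with 11 at an unadjusted p under 0.05, all lower, and none had separate arms. Without control replicate 2 the list's median was 0.09.

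**Figure D5:**
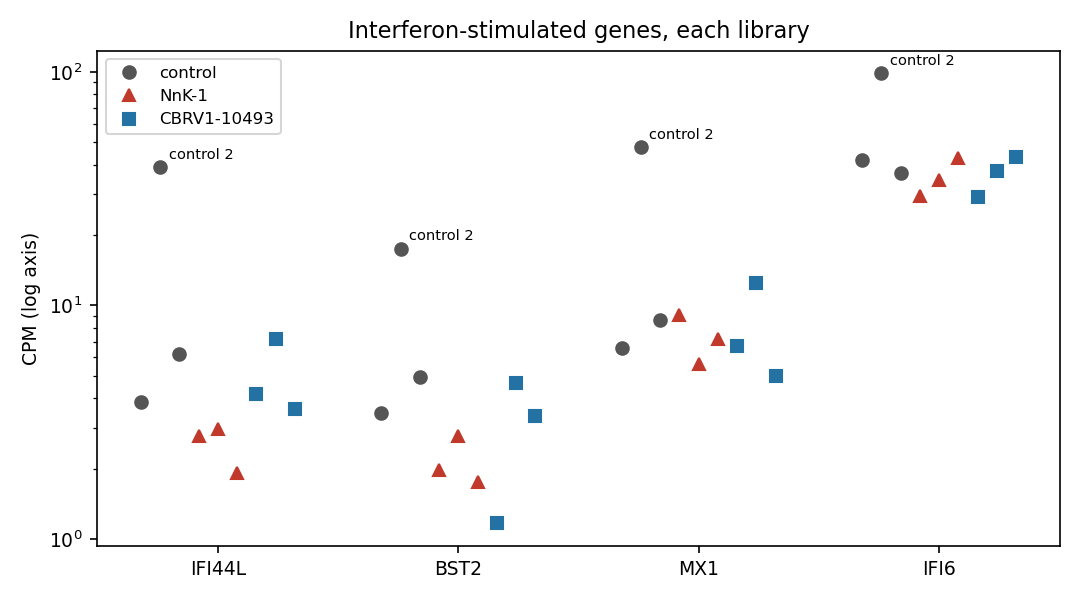
CPM (log axis) of 4 interferon-stimulated genes in each of the 9 libraries, by group. Control replicate 2 is the highest library for all 4 genes, and the other controls lie at or near the level of the peptide libraries.

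Among metabolic genes, 19 of 24 tested genes of cholesterol synthesis stood above 0, with a median log2 fold change of 0.10 that stayed between 0.07 and 0.11 under the alternatives. DHCR7, the reductase of its last step, stood at 114 ± 15.3 CPM with peptide against 94.1 ± 4.36 CPM in controls (0.28, and 0.18 without both libraries that lay apart), with overlapping arms. Nuclear genes of the respiratory chain gave 55 of 77 above 0 (71.4%) with a median of 0.06 (0.04 to 0.07), and glycolysis and hypoxia genes 25 of 34 with a median of 0.05 (0.01 to 0.08). Over all genes the share above 0 was higher among abundant ones, at 59.4% at 100 CPM or more and 54.0% at 20 to 100 CPM, against 46.3% at 5 to 20, 47.5% at 1 to 5 and 49.6% under 1 CPM. No gene of the 3 lists passed, and 3, 2 and 1 had an unadjusted p under 0.05, all higher, where 2.24% of all genes did.

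Growth and division genes lay near 0. G2/M and mitosis genes gave 27 above and 23 below 0 of 50 (median 0.01), with KIF11, the kinesin that separates spindle poles, at 42.7 ± 4.497 against 50.8 ± 1.02 CPM and separate arms. DNA replication genes gave 26 above and 17 below 0 of 43 (median 0.02), with FEN1, the flap nuclease (0.21), and MCM5, a subunit of the replicative helicase (0.24, and 0.15 without both libraries that lay apart), higher in all peptide libraries.

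Stress programmes likewise showed no passing gene. The integrated stress response gave 17 above and 12 below 0 of 29, with ATF3, a stress-induced transcription factor, at 45.3 ± 11.5 against 32.5 ± 5.98 CPM. The unfolded protein response gave 7 above and 13 below 0 of 20, with HYOU1, a chaperone of the endoplasmic reticulum, at 112 ± 16.6 against 134 ± 3.06 CPM and separate arms. Heat shock genes gave 11 above and 8 below 0 of 19, p53 targets and apoptosis genes 15 and 15 of 30, immediate-early genes 12 and 12 of 24, and NF-kB targets and cytokines 13 and 7 of 20. Clock genes gave 15 above and 7 below 0 of 22, among them CRY1 (0.82) and CRY2 (0.68), both with overlapping arms and an unadjusted p under 0.05. CRY2 stood at 5.21, 5.34 and 1.70 CPM in controls, and its value was 0.31 without control replicate 3.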

How the data were processed

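Total RNA of U-373MG cells was measured in 9 QuantSeq 3′ libraries. The authors deposited raw read counts for each gene symbol, in 1 file a library. Bowtie2 and bedtools were used with hg19, per the submitters' processing notes; versions, annotation and counting options are not given in the sources used here. Groups came from the labels. Of 25737 entries, 286 symbols on 1561 entries were summed, which left 24462 symbols.

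In R 4.3.3, edgeR 4.0.16 filtered genes (filterByExpr, minimum count 10, minimum total 15) over the 2 arms, scaled by TMM and fitted the quasi-likelihood model, peptide against control, two-sided, Benjamini-Hochberg adjusted, threshold 0.05. A fit with a coefficient per group gave each peptide and their difference. The common biological coefficient of variation was 0.168. CPM are TMM-scaled, errors are SDs. Separate arms means that all 6 peptide libraries lie on 1 side of all 3 controls. DESeq2 1.42.0, limma-voom (limma 3.58.1), other scalings and filters, the replicate block and each library left out were alternatives, and the script was tested on simulated data.

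The text names all passing genes or, with fewer than 10 in a direction, the 10 with the smallest p and at least 5 CPM, then KCNA3 and the 2 members of smallest p in every list; others are said to be chosen later, and 1 gene that the rule names is not reported here. The comparison and its lists were chosen with earlier results of these data known. Sequences and host genes come from GENCODE 29 (GRCh38), by symbol, with older symbols from RefSeq; no coordinates are given, since the counts were made on hg19. No libraries were as alike as sampling noise alone would make them (chi-square per degree of freedom 6.07 to 28.6).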

Additional observations from a re-analysis of the deposited data

Results flagged for a closer look

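Among 80 named genes, each examined over the 6 peptide libraries by the ratio of the gap at 1 end to the whole range (Dixon's 95% critical value), 4 had a library far from the others. Chance alone gives about 1 in 20.

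KDM3A stood at 106 CPM in CBRV1-10493 replicate 1, with the next library at 87.4 and the lowest at 77.2 CPM (ratio 0.649). The other 5 peptide libraries still lay above all 3 controls. GJA1, the gap junction protein connexin 43, stood at 116 CPM in NnK-1 replicate 1, with the next at 97.9 CPM (ratio 0.680). NEFL, a neurofilament subunit, stood at 77.4 CPM in NnK-1 replicate 2, with the next at 64.8 CPM (ratio 0.737). CNP, a phosphodiesterase of myelin-forming cells, stood at 416 CPM in NnK-1 replicate 2, with the next at 346 CPM (ratio 0.798). NnK-1 replicate 2 and CBRV1-10493 replicate 1 were also the libraries apart on the principal components.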

How the results depend on the processing

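With all 9 libraries 0 genes passed in either direction. DESeq2 called 2 higher (GCOM1, SLC16A1-AS1) and 2 lower (SCARNA22, TSHZ3), and edgeR's exact test 3 higher (LAMB2P1, LINC01358, SLC16A1-AS1) and 3 lower (IFI44L, SCARNA22, TSHZ3). LAMB2P1, LINC01358 and SLC16A1-AS1 met the filter on low counts through peptide libraries alone. Without that filter 2 passed lower (IFI44L, SCARNA22). Leaving out 1 library gave 0 higher and 0 to 1 lower, the 1 being SCARNA22 without CBRV1-10493 replicate 2. The cause was not tested.

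Genes with separate arms numbered 195 to 484 higher and 251 to 571 lower with 1 library left out, where fewer libraries have to agree in order. Without both libraries that lay apart, an alternative chosen after seeing the data, they were 343 and 376, and 0 genes passed. Without the filter 7 of the 20 genes passed for NnK-1 alone and 2 for CBRV1-10493 alone. The 20 were chosen by the pooled p on these same libraries, and the share of all genes passing in that setting was not counted. These counts are therefore no support for the 20 genes.

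Of 400 values of the 20 genes under 20 alternatives all 400 kept their direction, and 9 had an adjusted p under 0.05. Of 1585 values of all named genes 1570 kept their direction. The others turned near 0. With 1 library left out, MAP2 ran from -0.096 to 0.0098, MX1 from -1.87 to 0.0083 (above 0 without control replicate 2 alone), CNP from -0.0058 to 0.069, KDR from -0.50 to 0.20, SLC16A1 from -0.052 to 0.0046, LAMB2 from -0.049 to 0.098 and WHSC1 from -0.059 to 0.090. Without both libraries apart CNP was -0.013, KRT18 0.019 and WHSC1 0.016. Medians of lists moved by more than the spread of libraries in 13 of 558 values.

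Replicate numbers are shared across groups but did not pair the libraries: deviations of same-numbered libraries correlated at -0.06 to 0.13 across genes, and 4 of 9 libraries correlated best with their own number. With the replicate number as a block 0 genes passed in either direction and WHSC1 was 0.00046.

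With 3 controls, 1 library can carry a list, as control replicate 2 does for the interferon genes, and short RNAs of few reads have wide intervals.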
